A study of Mus musculus with 14 samples.

Results

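The interleukin-1 (IL-1) receptor family was described here through 7 genes in regulatory T cells (Tregs): Il1r1, Il1rap, Il1r2, Il1rl1, Il18r1, Il18rap and Sigirr. They were chosen by gene symbol, as receptors, decoy and inhibitory members of 1 family, from the 14449 genes of 1 deposited expression table, and all 7 were among the 12329 genes tested. RNA came from 50000 sorted CD4+ cells carrying the Foxp3-eGFP reporter, taken at postnatal day 35 from BALB/c lymph nodes and sequenced with Smart-Seq2, a full-length method for low input. There were 7 libraries from Il1rn-/- mice, in which the gene for the IL-1 receptor antagonist is deleted, and 7 from wild-type mice, and cells of both were sorted by the same reporter. The sample titles split them into a set b (4 Il1rn-/- and 4 wild-type libraries) and a set a (3 and 3), and do not explain the letters. Whether libraries came from separate animals is not stated in the labels, so p-values measure only the spread between libraries, which may be technical. Il1rn itself has no row among the genes analysed here, so the genotype labels have no check from the deleted gene.

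IL-1α and IL-1β bind the receptor encoded by Il1r1, which then recruits the accessory chain encoded by Il1rap and signals through MyD88, IRAK kinases and NF-κB. Il1rn encodes the antagonist that occupies the same receptor without signalling, and Il1r2 encodes a decoy that binds IL-1 but lacks the cytoplasmic signalling domain. Il1rl1 encodes ST2, the IL-33 receptor, which shares the Il1rap chain and marks many tissue Tregs, while Il18r1 and Il18rap encode the 2 chains of the IL-18 receptor and Sigirr encodes an inhibitory member of the family. In the mouse, Il1r2, Il1r1, Il1rl1, Il18r1 and Il18rap lie in this order on chromosome 1, with Il1rl2 between Il1r1 and Il1rl1, whereas Il1rap lies on chromosome 16 and Sigirr on chromosome 7.

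The sequences just upstream of the start sites are shown for Il1r2, Il18r1 and Il18rap, the 3 genes whose RNA differed together between library groups described further on. Each is the 250 bases before the RefSeq start site (GRCm38.p6, a C57BL/6J reference, plus strand): chr1:40085843-40086092 for Il1r2, chr1:40465302-40465551 for the first of 3 Il18r1 start sites and chr1:40515112-40515361 for Il18rap. Capitals mark matches to 7 short motifs, which were chosen after the sequences had been seen.
Il1r2: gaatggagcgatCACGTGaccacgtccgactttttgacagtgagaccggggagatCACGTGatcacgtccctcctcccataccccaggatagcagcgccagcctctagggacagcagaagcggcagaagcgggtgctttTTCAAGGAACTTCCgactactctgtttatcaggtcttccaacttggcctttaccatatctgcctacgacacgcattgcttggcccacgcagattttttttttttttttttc
Il18r1, first start site: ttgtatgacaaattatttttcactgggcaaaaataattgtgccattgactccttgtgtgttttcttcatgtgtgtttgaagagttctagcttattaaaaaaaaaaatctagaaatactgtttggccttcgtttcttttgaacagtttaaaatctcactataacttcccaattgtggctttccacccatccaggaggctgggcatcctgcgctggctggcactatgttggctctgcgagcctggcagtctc
Il18rap: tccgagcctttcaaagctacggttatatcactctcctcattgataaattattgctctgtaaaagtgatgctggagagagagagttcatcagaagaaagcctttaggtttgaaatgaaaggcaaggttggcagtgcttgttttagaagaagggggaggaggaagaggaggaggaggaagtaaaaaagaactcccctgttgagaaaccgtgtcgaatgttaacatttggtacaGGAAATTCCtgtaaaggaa

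The motifs, searched on both strands, were CACGTG (the E-box), GGAANTTCC (for NF-κB), TGANTCA (for AP-1), TTCNNNGAA (for STAT factors), TGTGGT (for RUNX factors), AGGTCA (for ROR factors) and GATAAG (for GATA-family factors). The Il1r2 window held 2 E-boxes, beginning 238 and 195 bases before the start site; 6.02% of 32851 RefSeq promoter windows of this length held at least 1 and 0.429% held 2 or more. It also held a GGAANTTCC match beginning 106 bases before the start, which overlaps a STAT match that begins at 111 bases. Il18rap held a GGAANTTCC match beginning 19 bases before its start, and 0.813% of all windows held this motif. STAT was matched in 7.02% of windows, TGANTCA in 6.75%, TGTGGT in 14.05%, AGGTCA in 14.02% and GATAAG in 6.55%. The windows of the first and second Il18r1 start sites held none of the 7, and that of the third held 2 STAT matches, beginning 219 and 152 bases before it, where 0.317% of windows held 2 or more. Il1rl1 held 2 GATAAG matches at its first start site and 1 TGTGGT and 1 AGGTCA match at its second, and no match was found for Il1r1 or Il1rap. These matches describe letters only. No promoter from the RefSeq table was matched to Sigirr.

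Depth was 952021 to 3756559 reads per library, and it was uneven. The ribosomal precursor Rn45s took 20.3 to 39.95% of reads in 8 libraries (Il1rn-/- 3-b and 4-b and all 6 of set a), here called low-Rn45s, and 59.6 to 65.8% in 6 (Il1rn-/- 1-b and 2-b and all 4 wild-type libraries of set b), here called high-Rn45s. Reads outside Rn45s numbered 1654868 to 2805693 in low-Rn45s and 384360 to 905988 in high-Rn45s libraries. Y-linked transcripts (25 reads or more) were found in Il1rn-/- 3-b and 4-b and in wild-type 1-a and 2-a only. All 8 Treg markers, Foxp3 among them, were present, summing to 2081 to 3174 CPM in Il1rn-/- and 2066 to 3129 CPM in wild-type libraries. By Rn45s group the sum was 2066 to 3174 CPM (median 2375) in low-Rn45s and 2568 to 3161 CPM (median 3095) in high-Rn45s libraries.

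The inhibitory member and the decoy had the highest mean levels of the family, by reads as well as per kilobase. Levels were compared between genes as CPM per kilobase of merged exons (GENCODE M21), since the transcripts differ in length. On that scale Sigirr averaged 31.0 ± 3.57 and Il1r2 24.0 ± 7.20 CPM per kilobase, followed by Il18r1 at 4.84 ± 3.06 and Il1rl1 at 2.44 ± 0.913. Il1rap at 0.943 ± 0.271, Il18rap at 0.746 ± 0.449 and Il1r1 at 0.152 ± 0.295 CPM per kilobase were lowest (SD, n = 14). Il1r2 exceeded Il18r1 in 14 of 14 libraries, by 19.2 ± 5.21 CPM per kilobase. Sigirr exceeded Il1r2 in 11 libraries, by 6.99 ± 6.71, about 1 SD. Il18r1 exceeded Il1rl1 in 10 of 14 libraries, by 2.40 ± 2.87, and Il1rap exceeded Il18rap in 10 of 14, by 0.197 ± 0.574 (SD of the difference). The order of these means was not the same in the 2 Rn45s groups. Il18r1 and Il1rl1 averaged 6.79 and 2.38 CPM per kilobase in low-Rn45s libraries, against 2.23 and 2.51 in high-Rn45s ones. Il1rap and Il18rap averaged 0.894 and 1.006 in low-Rn45s libraries, against 1.007 and 0.398 in high-Rn45s ones. Il1rl1 exceeded Il1rap in 14 libraries per merged exons but in 10 when the longest coding transcript set the length. As shares of the family's reads, not scaled by length, Sigirr held 48.9 ± 7.21%, Il1r2 22.9 ± 3.36%, Il18r1 11.02 ± 5.12%, Il1rl1 8.65 ± 3.13%, Il1rap 5.65 ± 1.99%, Il18rap 2.42 ± 1.12% and Il1r1 0.419 ± 0.776% (SD, n = 14).

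**Figure D1:**
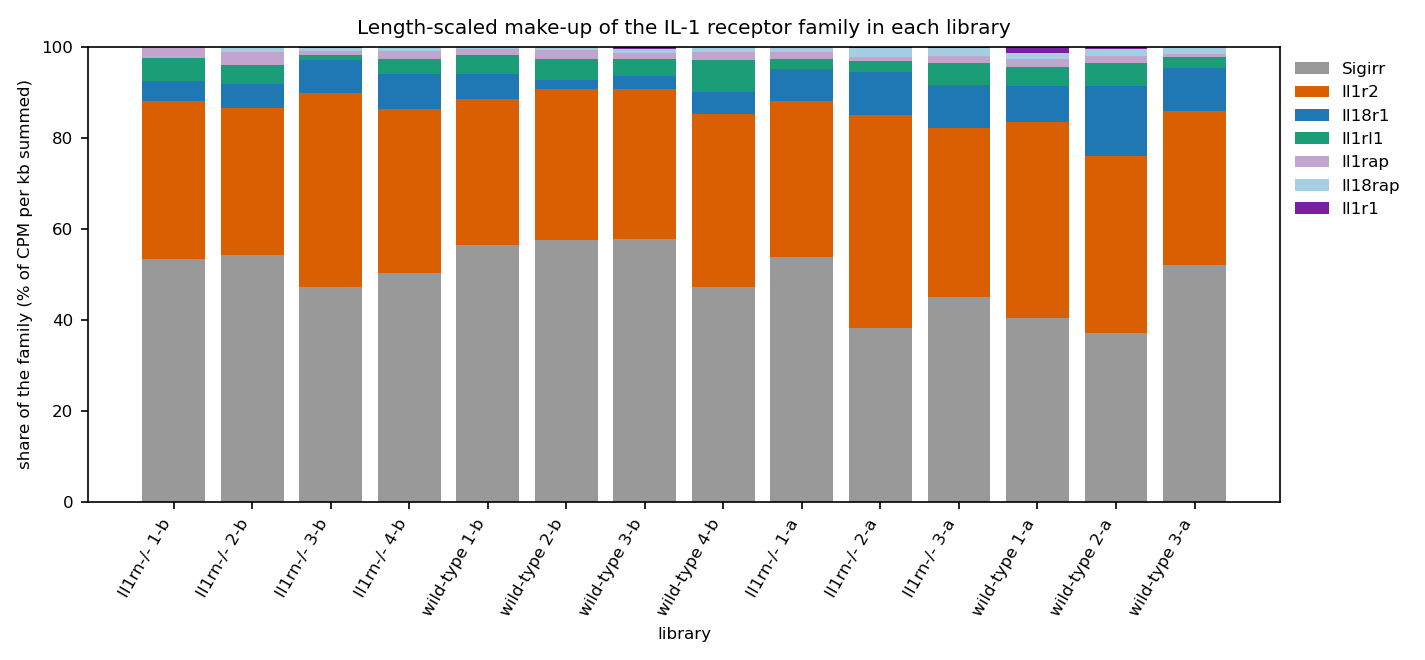
Stacked bars give each member's share (% of CPM per kilobase of merged exons, summed over the 7 genes) in each of the 14 libraries, set b on the left and set a on the right, Il1rn-/- before wild type in each. Sigirr and Il1r2 fill most of every bar, and Il1r1 is a thin or absent band.

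Il1r1, the signalling receptor for IL-1, was close to the detection limit. Il1rn-/- libraries held 0, 0, 2 and 0 reads in set b, against 0, 0, 1 and 0 in wild-type set b libraries. In set a there were 0, 5 and 6 reads in Il1rn-/- and 25, 9 and 0 in wild-type libraries. Thus 8 of 14 libraries had no read, 4 in each genotype, and wild-type 1-a alone held 25 of the 48 reads in all. A count of 0 allows up to 3 reads, which is 0.527 to 2.09 CPM over these 8 libraries; such limits cover counting error only. The fitted log2 difference, Il1rn-/- minus wild type, was -0.55 ± 1.09 (SE; limma adjusted p = 0.929) and depends on how 0 reads are logged. With so few reads a genotype difference in Il1r1 was not detectable at this depth. Fewer cells bearing a transcript and less of it per cell cannot be told apart in bulk RNA.

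The decoy far exceeded the signalling receptor in the 4 libraries with 5 or more Il1r1 reads. Per kilobase, Il1r2 was 192.8 times Il1r1 in Il1rn-/- 2-a and 121.2 times in Il1rn-/- 3-a, against 30.7 times in wild-type 1-a and 94.1 times in wild-type 2-a. In the 8 libraries with no Il1r1 read, taking 3 reads as the floor in each library, it was at least 67.8 to 200.1-fold higher in Il1rn-/- and at least 47.8 to 317.9-fold higher in wild-type libraries. Per kilobase of merged exons, Il1r2 was also 11.7 to 61.5 times Il1rap in Il1rn-/- and 16.0 to 58.7 times in wild-type libraries. Il1rap encodes the chain that IL-1 and IL-33 receptors share. It has 11360 bases of merged exons but 4520 in its longest coding transcript, against 1908 and 1419 for Il1r2. With the longest coding transcript these ratios are lower. Medians over all libraries were then 29.0 CPM per kilobase for Il1r2 and 2.33 for Il1rap, against 21.6 and 0.927 per merged exons.

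Il1r2 stood at 5.23, 4.98, 5.88 and 5.45 log2 CPM in the 4 Il1rn-/- libraries of set b, against 5.08, 4.91, 5.08 and 5.27 in wild type. Its values in set a were 5.27, 6.21 and 5.58 log2 CPM in Il1rn-/- libraries, against 6.02, 5.89 and 5.65 in wild type. Both genotypes spanned nearly the same range, and the 2 lowest Il1rn-/- values of set b were those of the high-Rn45s libraries. The mean was 5.52 ± 0.42 log2 CPM in Il1rn-/- and 5.41 ± 0.44 in wild-type libraries (SD, n = 7 each). The fitted difference was 0.10 ± 0.18 (SE; 95% confidence interval -0.26 to 0.47; limma adjusted p = 0.914), higher in 4 of 7 Il1rn-/- libraries than the wild-type mean.

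Il18r1, the ligand-binding chain of the IL-18 receptor, varied more than the decoy or Sigirr, with an SD of 0.99 log2 CPM over the 14 libraries against 0.41 for Il1r2 and 0.16 for Sigirr. In set b its values were 3.63, 3.70, 4.67 and 4.56 log2 CPM in Il1rn-/- libraries, against 3.90, 2.31, 2.82 and 3.67 in wild type. In set a they were 4.31, 5.21 and 4.95 log2 CPM in Il1rn-/- libraries, against 4.90, 5.91 and 5.16 in wild type. The genotypes overlapped in both sets. Il18rap, the signal-transducing partner chain, stood at 0.39, 2.08, 1.69 and 2.04 log2 CPM in Il1rn-/- libraries of set b, against 0.52, 1.12, 1.84 and 1.97 in wild type. Set a held 2.13, 3.50 and 3.04 log2 CPM of Il18rap in Il1rn-/- libraries, against 2.83, 3.08 and 3.03 in wild type. These rest on 2 to 46 reads per library for Il18rap and 6 to 257 for Il18r1.

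Il1rl1, the ST2 gene, had 4.30, 3.87, 2.59 and 3.80 log2 CPM in Il1rn-/- libraries of set b, against 3.96, 3.88, 3.81 and 4.69 in wild type. In set a it had 3.22, 3.88 and 4.55 log2 CPM in Il1rn-/- libraries, against 4.55, 4.80 and 3.73 in wild type. The lowest value was that of Il1rn-/- 3-b, on 19 reads. Il1rap had 3.76, 4.01, 2.93 and 3.69 log2 CPM in Il1rn-/- set b libraries, against 3.25, 3.49, 3.04 and 3.39 in wild type, and 3.41, 2.86 and 3.41 in Il1rn-/- set a libraries, against 3.85, 3.74 and 2.37 in wild type. Neither gene separated the genotypes, whose ranges met for all 7 members over all libraries, in set b and in set a (they did not meet for 0.0324%, 4.28% and 7.97% of tested genes). Sigirr was the steadiest, at 6.40 to 6.71 log2 CPM in Il1rn-/- and 6.25 to 6.94 in wild-type libraries.

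**Figure D2:**
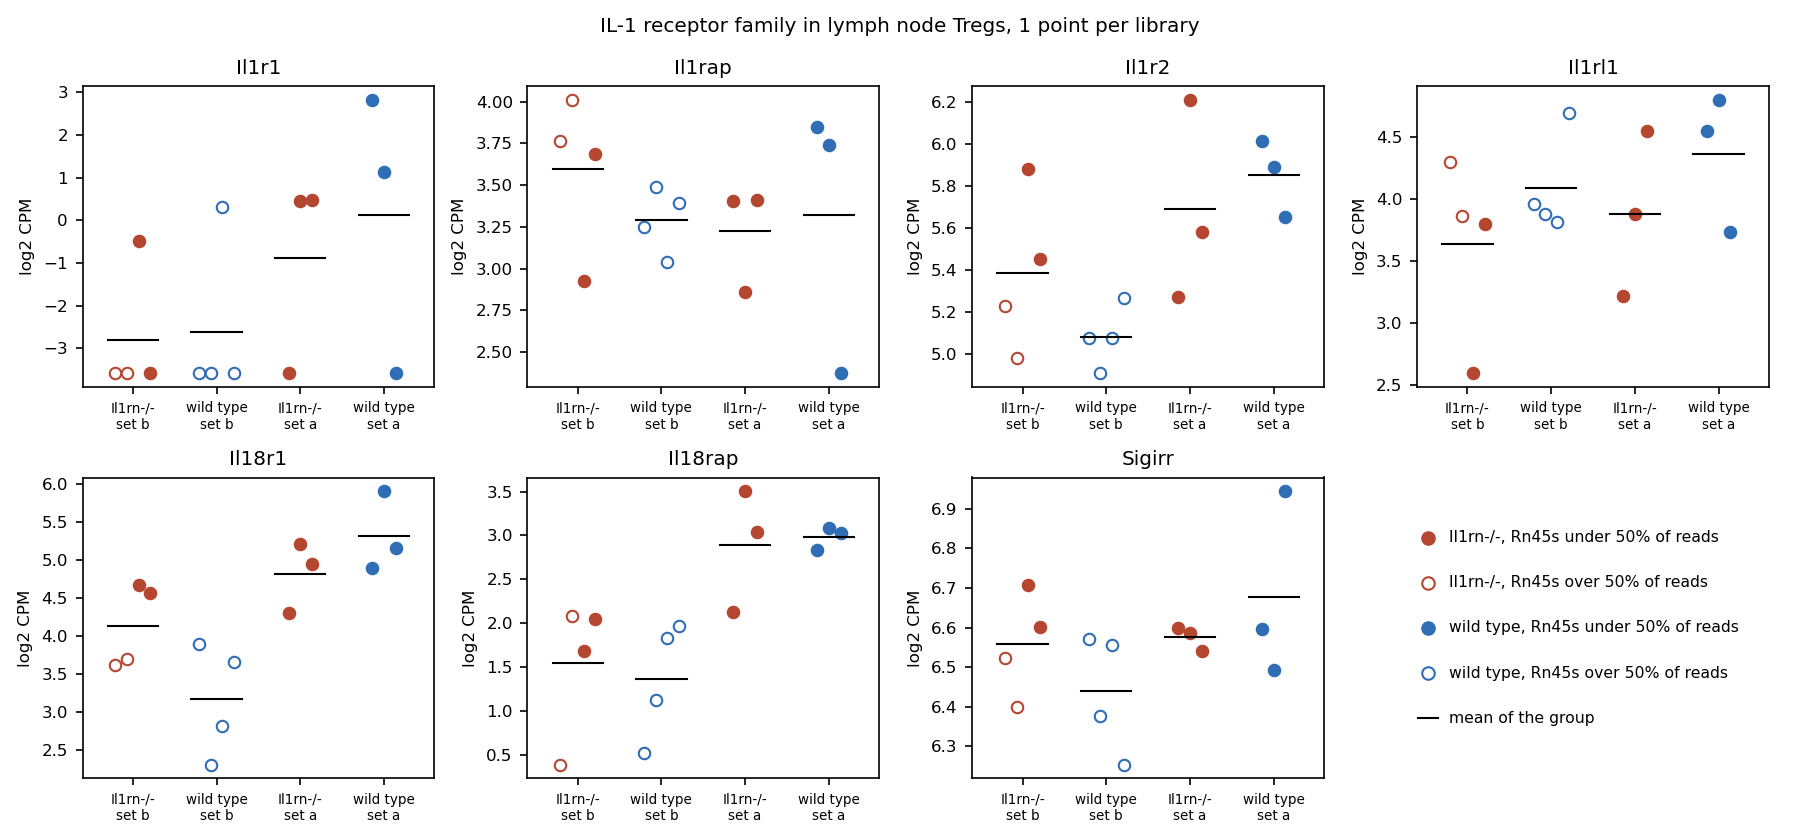
Each point is 1 library's log2 CPM, each panel 1 gene on its own axis, grouped by set and genotype, with a bar at the group mean; open points are libraries with Rn45s over 50% of reads. Genotypes overlap for all 7 genes in both sets, and for Il1r2 and Il18r1 the open points lie below all filled ones.

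Loss of the antagonist was not accompanied by a called change in any of the 7 genes. With set as a term, 0 of 12329 genes passed an adjusted p of 0.05 by limma (0.0%), and 679 had an unadjusted p under 0.05 (5.51%), none of them a member. Il18r1 differed by 0.34 ± 0.32 (SE; interval -0.33 to 1.01; adjusted p = 0.849), with means of 4.43 ± 0.60 log2 CPM in Il1rn-/- and 4.09 ± 1.30 in wild-type libraries (SD, n = 7 each). The difference was -0.46 ± 0.28 for Il1rl1 (SE; interval -1.05 to 0.12; adjusted p = 0.792), from 3.74 ± 0.66 log2 CPM in Il1rn-/- and 4.20 ± 0.46 in wild-type libraries, and 2 of 7 Il1rn-/- values exceeded the wild-type mean; its exact two-sided permutation p within sets was 0.157. Il1rap differed by 0.13 ± 0.27 (interval -0.43 to 0.69). Among high-Rn45s libraries alone Il1rap differed by 0.59 ± 0.23 (SE; interval 0.018 to 1.17; limma unadjusted p = 0.0452, adjusted p = 0.961), at 3.76 and 4.01 log2 CPM in 2 Il1rn-/- libraries, against 3.04 to 3.49 in 4 wild-type libraries. In that subset 4.3% of genes had an unadjusted p under 0.05, and 11.5% had ranges that did not meet, as here. Over all libraries Il18rap differed by 0.07 ± 0.38 (interval -0.72 to 0.85) and Sigirr by 0.02 ± 0.12 (interval -0.23 to 0.28). For Sigirr the interval spans folds of 0.852 to 1.21, and for Il1r2 0.833 to 1.39, whereas for Il1rl1 it reaches down to 0.484. With the Rn45s group in place of the set, Il1r2 stood at -0.09, Il18r1 at -0.14, Il18rap at -0.35, Sigirr at -0.03, Il1rap at 0.21, Il1rl1 at -0.44 and Il1r1 at -1.26, so 4 signs turned.

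**Figure D3:**
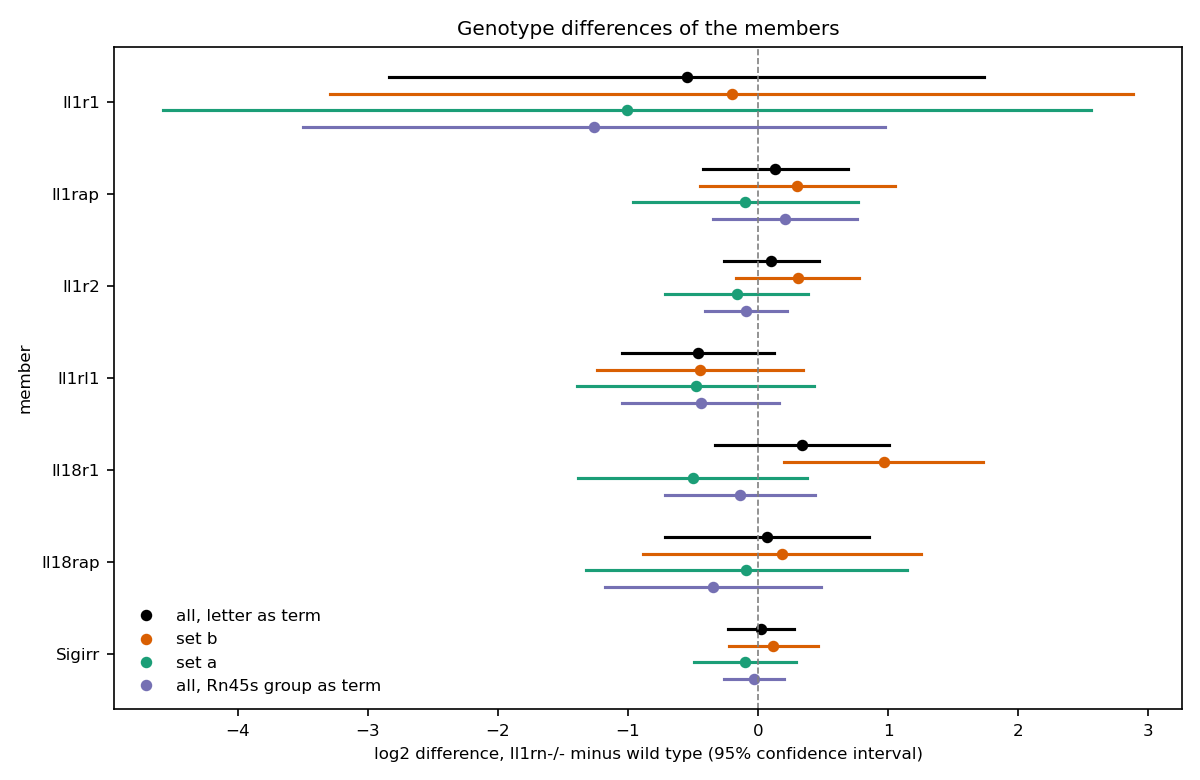
Points are log2 differences, Il1rn-/- minus wild type, with 95% confidence intervals, from the model over all libraries with set as a term, within set b, within set a, and with the Rn45s group as the term. Every interval crosses 0 except that of Il18r1 in set b (0.20 to 1.73).

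Set apart, the sets placed Il18r1 on opposite sides of 0. Within set b it was 0.97 ± 0.36 higher in Il1rn-/- libraries (SE; interval 0.20 to 1.73), all 4 of them above the wild-type mean, but the limma adjusted p was 0.270 and the exact two-sided permutation p 0.143, where 4 against 4 allow 0.0286 at the smallest. Within set a it was -0.50 ± 0.42 (adjusted p = 1.0; exact permutation p = 0.5, with 0.1 the smallest possible), and 0 of 3 Il1rn-/- values exceeded the wild-type mean. The genotype difference in set b minus that in set a was 1.47 ± 0.56 (interval 0.30 to 2.64; adjusted p = 0.610), with an exact permutation p of 0.0414 over 1400 relabellings, 1 of 7 such tests and unadjusted. No gene passed in any of these 3 contrasts (0.0%), while 15.0%, 1.97% and 7.85% of genes had an unadjusted p under 0.05 for set b, set a and their difference. Left-out libraries moved these counts: leaving out Il1rn-/- 2-b gave 230 genes in set b, leaving out Il1rn-/- 1-b gave 7, and dropping wild-type 1-b gave 3, and in set a 1 gene passed once wild-type 3-a was dropped, while the adjusted p of Il18r1 in set b stayed at 0.108 or above. In set b the Il1rn-/- libraries differ in Rn45s: Il18r1 averaged 4.62 log2 CPM in the low-Rn45s libraries 3-b and 4-b and 3.66 in the high-Rn45s libraries 1-b and 2-b, while the wild-type libraries, all high-Rn45s, averaged 3.17 ± 0.74 (SD, n = 4). Among high-Rn45s libraries alone the genotype difference was 0.49 ± 0.51 (SE), and among low-Rn45s libraries alone -0.58 ± 0.28 without a term for set. Y-linked transcripts were found only in Il1rn-/- 3-b and 4-b within set b, and only in wild-type 1-a and 2-a within set a. Within each set they thus occurred in 1 genotype only. Their part in the differences within sets, and in the contrast between sets, was not tested. The other members had differences in set b and set a of 0.30 and -0.16 for Il1r2, 0.30 and -0.10 for Il1rap, -0.45 and -0.48 for Il1rl1, 0.19 and -0.09 for Il18rap and 0.12 and -0.10 for Sigirr, none of them called.

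The IL-18 receptor chains and the decoy were higher in low-Rn45s than in high-Rn45s libraries. Among wild-type libraries this split and the set are the same and cannot be told apart. The fits of this split held no term for set. With genotype as a term, Il18r1 was 1.66 ± 0.28 higher on the log2 scale (SE; interval 1.08 to 2.24; limma adjusted p = 0.000107), a 3.16-fold difference, with means of 4.96 ± 0.49 log2 CPM in low-Rn45s (n = 8) and 3.34 ± 0.63 in high-Rn45s libraries (n = 6; SD). Il18rap was 1.45 ± 0.40 higher (2.73-fold; adjusted p = 0.00801), at 2.67 ± 0.63 log2 CPM in low-Rn45s and 1.32 ± 0.75 in high-Rn45s libraries. Il1r2 was 0.68 ± 0.15 higher (1.60-fold; adjusted p = 0.00168), at 5.75 ± 0.31 in low-Rn45s and 5.09 ± 0.14 log2 CPM in high-Rn45s libraries. All 8 low-Rn45s libraries lay above the high-Rn45s mean for each of the 3 genes, and for Il1r2 and Il18r1 the ranges did not meet. Sigirr (0.20 ± 0.11, adjusted p = 0.179), Il1rap (-0.27 ± 0.27, 0.452) and Il1rl1 (-0.07 ± 0.29, 0.877) did not pass, nor did Il1r1 (2.51 ± 1.08, 0.0765), which had 47 reads in the 8 low-Rn45s libraries and 1 in the 6 high-Rn45s ones. This split was chosen after the data were seen, and it touched a large part of the transcriptome: 36.1% of tested genes were called, 20.0% higher and 16.1% lower, and 14.9% had ranges that did not meet, so 3 called members of 7 are to be read against that background.

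Inside 1 genotype and set, Il1r2 and Il18r1 split the same way and Il18rap did not, as values without a test. Il1rn-/- 3-b and 4-b averaged 5.67 log2 CPM of Il1r2 and 4.62 of Il18r1, against 5.11 and 3.66 in Il1rn-/- 1-b and 2-b. Il18rap had 1.69 and 2.04 log2 CPM in the low-Rn45s libraries 3-b and 4-b, against 0.39 in 1-b, on 2 reads, and 2.08 in 2-b, which was the highest of the 4. Il1rl1 and Il1rap stood the other way, at 3.20 and 3.31 log2 CPM in 3-b and 4-b, against 4.08 and 3.89 in 1-b and 2-b. Y-linked transcripts separate the same 2 pairs of libraries, so the 2 features cannot be told apart there. Depth, Rn45s share and mitochondrial ribosomal RNA (8.82 to 16.6% of the remaining reads in low-Rn45s and 2.97 to 4.12% in high-Rn45s libraries) all move with the split, and their part in these differences was not tested.

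Other cell types carry several of these receptors, so their markers are given beside the split. Neutrophils, which are rich in Il1r2, had 4 of 9 listed markers in the table. Their sum was 0 to 1.10 CPM in low-Rn45s and 2.09 to 6.73 CPM in high-Rn45s libraries. These 4 had at most 8 reads each in any library, and S100a8, S100a9, Retnlg, Ngp and Camp have no row. For scale, 1 read is 0.176 to 0.337 CPM in low-Rn45s and 0.517 to 1.16 CPM in high-Rn45s libraries. The part of depth in the difference between these sums was not tested. Mast cells and basophils, which carry Il1rl1, were represented by Kit alone of 6 markers, at 1.28 to 6.53 CPM in low-Rn45s and 5.81 to 10.4 CPM in high-Rn45s libraries. CD8 T and NK cells, known for the IL-18 receptor, had 5 of 6 markers. These summed to 27.1 to 49.5 CPM in low-Rn45s and 40.7 to 77.5 CPM in high-Rn45s libraries. Monocyte and macrophage markers (6 of 7) summed to 2.15 to 25.9 CPM in low-Rn45s and 6.74 to 13.7 CPM in high-Rn45s libraries, and dendritic cell markers (3 of 6) to 0.467 to 4.94 CPM in low-Rn45s and 0 to 3.84 CPM in high-Rn45s libraries. B cell markers (5 of 5) summed to 14.5 to 49.8 CPM in low-Rn45s and 15.3 to 53.2 CPM in high-Rn45s libraries, and stromal and endothelial markers (3 of 8, almost all of it Pecam1) to 64.8 to 107.3 CPM in low-Rn45s and 66.2 to 80.9 CPM in high-Rn45s libraries. Of the neutrophil markers, Mmp8 was at 0 in 11 of 14 libraries, Csf3r in 10, Cxcr2 in 8 and Mmp9 in 5. Of the monocyte and macrophage markers, Fcgr1 was at 0 in 12 libraries, Cd14 in 10, Csf1r in 5, Cd68 in 3 and Itgam in 2, while Lyz2 was present in every library, at 3 to 81 reads and up to 20.7 CPM. The part of these cells in the results was not tested.

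**Figure D4:**
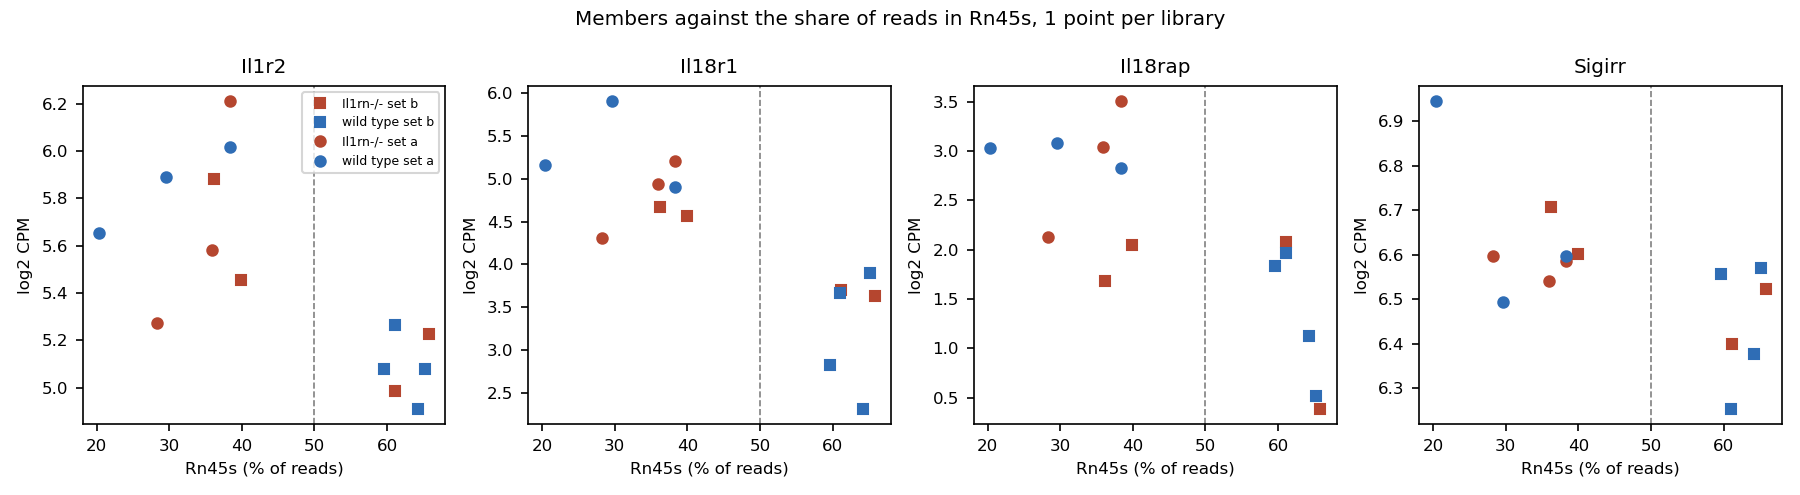
Each point is 1 library, with the Rn45s share of its reads (%) across and the gene's log2 CPM up, coloured by genotype and shaped by set; the dashed line marks 50%. Il1r2 and Il18r1 lie lower in all 6 libraries right of the line than in the 8 left of it, whereas Sigirr overlaps.

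Between the sets, Il18r1 was lower by 1.41 ± 0.32 in set b than in set a (SE; limma adjusted p = 0.00646), Il18rap by 1.48 ± 0.38 (adjusted p = 0.0122) and Il1r2 by 0.54 ± 0.18 (adjusted p = 0.0412). All 8 set b libraries lay below all 6 set a libraries for Il18rap, at 0.39 to 2.08 in set b against 2.13 to 3.50 log2 CPM in set a. Ranges that did not meet were found for 1.5% of genes, and 19.5% were called, 8.48% higher and 11.0% lower in set b; these 2408 genes became 1355 without wild-type 2-a and 1570 without wild-type 1-a. The 6 high-Rn45s libraries are all in set b, and with the Rn45s group as a further term the differences were -0.44 for Il18r1 (adjusted p = 0.876), -1.02 for Il18rap (0.700) and -0.06 for Il1r2 (0.981). The call for Il1r2 was also lost when Il1rn-/- 1-b, 2-b or 2-a or any 1 of the 7 wild-type libraries was left out, 10 libraries in all, with a limma adjusted p of up to 0.105.

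The ligands were scarce. Of 11 listed IL-1 family ligands and soluble inhibitors, 3 had rows: Il1b (0 to 4 reads, 0 in 10 libraries), Il18 (0 to 10 reads) and Il18bp (0 to 20 reads), the last a soluble IL-18 inhibitor. Il18 averaged -1.41 ± 1.60 log2 CPM in Il1rn-/- and 0.52 ± 0.58 in wild-type libraries (SD, n = 7 each), a difference of -1.92 ± 0.71 (SE), with 0 of 7 Il1rn-/- values over the wild-type mean and a limma adjusted p of 0.787. Il18bp differed by 0.70 ± 0.69 (adjusted p = 0.853). Il1rl2, the IL-36 receptor, had 0 to 3 reads and was not tested.

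Downstream of the receptors, 0 genes of any list passed for genotype, as for all genes. The MyD88 chain (14 genes tested) gave 9 positive and 5 negative differences, median 0.10, beside 0.04 over all genes tested. Within it, the ubiquitin-conjugating pair Ube2v1 (-0.88 ± 0.46) and Ube2n (-0.67 ± 0.36) and the inhibitor Tollip (0.23 ± 0.17) had the smallest unadjusted p (SE; adjusted p 0.787, 0.787 and 0.810). Of 8 IKK and NF-κB genes, 7 were positive (median 0.10), led by the kinase Ikbkb at 0.51 ± 0.19 (adjusted p = 0.787), then Ikbkg at 0.21 ± 0.16 and Chuk at 0.23 ± 0.24. Early targets of IL-1 and IL-18 signalling had 8 of 12 positive (median 0.22), with Ifng, which IL-18 induces in T cells, at 1.43 ± 0.97 (adjusted p = 0.797), and the NF-κB inhibitors Nfkbie at 0.24 ± 0.16 and Nfkbib at 0.24 ± 0.19.

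Genes of ST2-positive tissue Tregs gave 7 positive and 8 negative differences of 15 (median -0.07), with Pparg at -1.76 ± 1.01 on 0 to 3 reads, Rora at 0.49 ± 0.30 and Irf4 at -0.26 ± 0.17 (SE). Genes of IL-18-responsive Th1-like cells had 5 of 8 positive (median 0.21), with the IL-12 receptor chain Il12rb2 at 1.45 ± 0.91 on 0 to 5 reads and Stat4 at 0.23 ± 0.15. Of 9 transcription factors known for Il1r1 or Il1r2 in T cells, 4 were positive (median -0.11), Ikzf2, the Helios gene, being at 0.23 ± 0.15.

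Between low-Rn45s and high-Rn45s libraries the lists held called genes. Early targets were higher in low-Rn45s libraries for 7 of 12 genes and lower for 0, with a median of 0.80 beside 0.12 over all genes, and Ifng, on 0 to 44 reads, was 3.45 ± 0.75 higher (SE; limma adjusted p = 0.00133). IKK and NF-κB genes were higher for 5 of 8 and lower for 0 (median 0.51), Ikbkb by 1.21 ± 0.14 (adjusted p = 8.94e-07). The MyD88 chain had 4 higher and 3 lower of 14, with Ube2v1 at -3.46 ± 0.18 and Ube2n at -2.38 ± 0.14. ST2-positive tissue Treg genes had 4 higher of 15, Rora by 1.60 ± 0.23 (adjusted p = 1.5e-05), Th1-like genes 1 of 8, and the transcription factors 2 higher and 3 lower of 9. The background of 20.0% higher and 16.1% lower calls holds for each of these counts. Low-Rn45s libraries numbered 5 in Il1rn-/- and 3 in wild type. Of the ligand and downstream genes named for genotype, all but Il18 had the same sign in both comparisons. How much of their genotype difference follows the Rn45s split was not tested.

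Genes whose log2 CPM most resembled the 3 best-measured members over the 14 libraries, after each Rn45s group was centred on its own mean, are a description taken from 5224 candidates that share depth and library. For Il1r2 the nearest was Ccr6, a chemokine receptor of effector-type T cells and Tregs (Pearson r = 0.879), then M6pr (0.800) and Rnf125 (0.789); without centring r was 0.937, 0.144 and 0.684 for these genes in the same order. For Il18r1 they were Eif2ak1 (0.834, and -0.359 without centring), Cnot6l (0.820 and 0.765) and Zw10 (0.801 and 0.845), and for Sigirr Pcyt2 (0.892 and 0.909), Tmem147 (0.850 and 0.184) and Stk25 (0.849 and 0.817). The likeness of M6pr, Eif2ak1 and Tmem147 was therefore seen only after centring.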

How the data were processed

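The members and gene lists were chosen with earlier results of these data known. The values are log2 CPM, deposited by the authors in 1 table in which 165 genes carry no symbol. Per the labels' protocols, Cuffquant 2.2.1 quantified transcripts; Cufflinks 2.2.1, Cuffnorm, TopHat2 2.0.10 and BWA are listed in the submitters' processing notes. The build, the use of strand and the last step to CPM were not given in the sources used here. Overlapping genes may therefore share reads. All libraries share a floor of -3.58, which is 0 reads; whole reads were recovered from the steps above it (100% within 0.001 of a whole number). Linear values sum to 620415 to 1450869 per library, so the authors scaled libraries by a factor that is not stated.

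A gene was tested if at least 3 libraries had a CPM above 1. The test was limma 3.58.1 in R 4.3.3 (intensity trend, genotype and set as terms, two-sided, Benjamini-Hochberg adjustment over 12329 genes, adjusted p under 0.05); a model of 4 groups gave the contrasts within sets. Differences are on the deposited log2 scale, which understates changes of low genes. Single genes were also tested by exact permutation within sets. Figures used Python 3.11.15 and matplotlib 3.10.9. Steps were tested on simulated data. A longer classical NF-κB motif was also searched for and matched no member's promoter window; its background share is not reported here. Alternatives were other filters, pseudocounts, scalings, terms, variance models, limma voom on recovered reads and each library left out. Named genes were all members, the 3 genes with the smallest unadjusted p of each list and the 3 most like each member whose mean log2 CPM reached 4. Reads carry no molecular identifiers, so they may be copies of 1 molecule.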

Additional observations from a re-analysis of the deposited data

Results flagged for a closer look

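The 7 members were examined for libraries far from the rest within each genotype and within each genotype of set b, 28 groups in all. Chance gives about 1 in 20 such groups, a rate that does not hold where values tie at the floor. Of the 28 groups, 2 held such a library. Both are Il1r1 in set b: Il1rn-/- 3-b stood at -0.49 log2 CPM on 2 reads, and wild-type 3-b at 0.32 log2 CPM on 1 read, with the other 3 libraries of each group at the floor of -3.58. Each rests on 1 or 2 reads, and with the other libraries tied at the floor any read would have been flagged.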

How the results depend on the processing

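Over the alternatives, 286 results kept their direction and side of the threshold and 35 turned sign; with 1 library left out these were 535 and 41. Every turned sign belongs to a member whose difference was not called. The low-Rn45s differences held under all 19 alternatives run, at 1.45 to 1.81 for Il18r1, 1.22 to 1.77 for Il18rap and 0.60 to 0.75 for Il1r2 (adjusted p up to 0.000498, 0.0365 and 0.00707), while Il1r1 passed with array weights (0.0473), without wild-type 3-b (0.0347) and without wild-type 3-a (0.0164). None of these 19 held set as a term, so they do not tell set and Rn45s group apart. Members called between sets lost the call as the report gives, and Il1r2 also with median centring (0.0730) and voom (0.0728), while Il1r1 gained it with array weights (-2.98, adjusted p = 0.0322).

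Genes called for genotype numbered 13 in high-Rn45s libraries alone, 1 in low-Rn45s libraries alone and 2 there without the set term. Those called between sets numbered 4091 with array weights, 12 with the Rn45s group added and 1355 to 3376 with 1 library left out (1355 without wild-type 2-a, 1570 without wild-type 1-a). With 1 library left out, 0 to 1 were called within set a (1 without wild-type 3-a) and 0 to 230 within set b (230 without Il1rn-/- 2-b, 7 without Il1rn-/- 1-b, 3 without wild-type 1-b). The cause was not tested.

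For genotype, signs turned for Il1r2 (-0.037 with array weights, -0.091 with the Rn45s group in place of set, -0.076 with both, -0.074 with Rn45s group and Y-linked transcripts, -0.16 in low-Rn45s libraries alone, -0.17 there without set) and, in the same order of settings where they turned, for Sigirr (-0.0037, -0.033, -0.044, -0.045, -0.10, -0.071, and -0.049 as CPM outside Rn45s), Il18r1 (-0.052 with voom, then -0.14, -0.035, -0.13, -0.50, -0.58), Il18rap (-0.0039 as CPM outside Rn45s, -0.049 with voom, -0.13 in high-Rn45s libraries alone, then -0.35, -0.11, -0.44, -0.091, -0.50) and Il1rap (-0.097 and -0.064 in low-Rn45s libraries). Other turned signs were Il18rap in set a (0.020) and Il1r1 in set b (0.093) with array weights, Il1rl1 for the genotype difference in set b minus that in set a (-0.035 as CPM outside Rn45s, -0.17 with voom), and Il1rap (-0.080) and Sigirr (0.049) between sets with the Rn45s group.

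With 1 library left out, genotype differences ran over -1.20 to 0.0031 for Il1r1, -0.0024 to 0.21 for Il1r2, -0.024 to 0.25 for Il1rap, -0.093 to 0.26 for Il18rap and -0.018 to 0.085 for Sigirr. In set a they ran over -2.86 to 0.35, -0.42 to 0.043, -0.57 to 0.17, -0.40 to 0.29 and -0.20 to 0.030 for the same genes. In set b they ran over -0.98 to 0.77 for Il1r1 and -0.094 to 0.57 for Il18rap, and the genotype difference in set b minus that in set a ran over -0.55 to 2.66 for Il1r1, -0.30 to 0.38 for Il1rl1 and -0.10 to 0.67 for Il18rap. Il1rap between sets ran over -0.010 to 0.31 and Il1rl1 between Rn45s groups over -0.22 to 0.099.

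Replicate numbers did not pair libraries (correlations of same-numbered deviations -0.151 to 0.001); with a replicate block 0 genes were called for genotype, 633 at an unadjusted p under 0.05, and no member's call changed. Per kilobase, Il1r2 held 36.9% of the family, Il1rl1 3.89%, Il1rap 1.54% and Il18rap 1.10%. Low reads limit Il1r1, Il18rap and Il1rap most.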
